A study of Rattus norvegicus with 6 samples.

Results

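The antioxidant, glutathione and NADPH genes described here are 40 genes chosen by name. No measured value entered the rule, but the 40 were chosen with earlier results of these data known. They were followed in primary ventricular myocytes of newborn Sprague-Dawley rats (heart tissue, labelled male, aged 1 to 2 days) that were given siRNA to uc.323, the group si-uc.323, or a control siRNA of scrambled order, the group si-scramble. Ultraconserved regions such as uc.323 are identical between distant mammals, and some are transcribed into non-coding RNA. The study asks what uc.323 controls in hypertrophy of these cells. There were 3 cultures per group, described as independent experiments, and each culture had 1 array. Cells of both groups were preplated against fibroblasts, grown with bromodeoxyuridine for 36 h, given 50 nmol/L siRNA for 3 h, kept without serum for another 21 h and harvested 24 h after transfection. A single siRNA was used against uc.323, so its effect and any effect of that sequence on other RNAs cannot be told apart. Its 19 bases are shown because they define the treated group, and the labels do not say which strand they are.
si-uc.323: gguaaguaauuucagcaau
The knockdown of uc.323 itself was not analysed here. Which animals each culture came from is not given in the sources used here, so every p-value reflects only how these samples vary, which may be technical.

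Reactive oxygen species arise mainly from the respiratory chain and from NADPH oxidases. Superoxide dismutases turn superoxide into hydrogen peroxide, which catalase, the glutathione peroxidases and the peroxiredoxins break down. The last of these groups draw their electrons from glutathione and thioredoxin, which are recharged with NADPH, and the transcription factor NRF2 (gene Nfe2l2), held back by KEAP1, drives many of the genes involved. Cardiomyocytes, with their dense mitochondria, lean heavily on this system.

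Of the 40 genes, 39 had a probe matched by accession and all 39 passed the filter on dim probes, being well above background on every array. Pgd had no matched probe. Against the 15168 named genes on the array and the 11580 that were tested, the 39 are a small set. On these arrays, 14 of 14 matched cardiomyocyte markers were well above background on all 6 arrays. So were 11 of 12 fibroblast, 13 of 14 leukocyte, 7 of 8 endothelial and 6 of 8 erythroid markers, in cultures that had been preplated. The summed level of 14 cardiomyocyte markers was 302 to 320 with si-uc.323 and 333 to 346 with si-scramble, in units of each array's 75th percentile of intensity. Actc1 was the 1 marker of the 14 that was lower at an adjusted p under 0.05 (log2 fold change -0.63, limma adjusted p = 0.0314). Of the 14, 8 had values above 0 and 6 below, and the median was 0.01. Every si-uc.323 array lay below every si-scramble array in 5 of them, against 19% of all named genes. In 3 every si-uc.323 array lay above, against 20.1% of all named genes. For 8 endothelial markers the sum was 6.06 to 9.06 against 11.6 to 12.9. Kdr makes up most of that sum (-0.76, limma adjusted p = 0.068), and 5 of the 8 had values above 0, with a median of 0.11. Neither sum thus describes most markers of its list. The sums of the fibroblast (135 to 164 against 130 to 141), leukocyte (17.9 to 21.8 against 20.8 to 21.3) and erythroid (2.97 to 3.89 against 3.50 to 4.07) markers overlapped between groups. Single markers still passed in limma: fibroblast Postn higher (0.69, adjusted p = 0.0312), and leukocyte Cx3cr1 (-1.60, adjusted p = 0.0462), erythroid Hbb (-0.61, adjusted p = 0.0478) and neural Dbh (-0.71, adjusted p = 0.0261) lower. Of 10 smooth muscle and pericyte markers 0 were called, against 6.14% of all named genes. In 3 of those 10 every si-uc.323 array lay above and in 1 below. The part of these differences in the results below was not tested, and in RNA from whole cultures fewer cells of a type and less RNA per cell cannot be told apart. Slides divided the groups unevenly. One slide carried the whole control group together with si-uc.323 replicate 1, and the other carried replicates 2 and 3 of si-uc.323. On the latter 78.2% and 86.5% of probes were well above background against 71.8% to 73.9% on the first.

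Most of the antioxidant genes did not pass the test for a difference between si-uc.323 and si-scramble. Only Prdx4, the peroxiredoxin of the endoplasmic reticulum, passed the test, with a level 1.67-fold higher. That is 1 of 39 genes (2.56%) at an adjusted p under 0.05 in limma with Benjamini-Hochberg adjustment over all features, against 6.14% of all named genes (3.26% higher and 2.88% lower) and 5.63% of all features. No gene of the group passed the test as lower. At an unadjusted p under 0.05 there were 3 higher and 7 lower values among the 39, in all 25.6% against 30.1% of all named genes (16.7% higher and 13.3% lower). The 3 arrays of one group lay apart from those of the other for 16 of the 39 (6 higher and 10 lower), or 41%, against 39.1% of all named genes (20.1% higher and 19% lower). The log2 fold change was above 0 in 16 of 39 genes, against 52.7% of all named genes. The median log2 fold change of the 39 was -0.06 and that of all named genes 0.02. The 38 genes that did not pass are not thereby shown to be equal. The unadjusted 95% interval lay inside a 2-fold change either way for 37 of them and inside a 1.5-fold change for 24. Only that of Nox4 reached past 2-fold (log2 fold change -0.19 to 1.03). Standard errors of the log2 fold change ran from 0.11 to 0.28, with a median of 0.13.

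**Figure D1:**
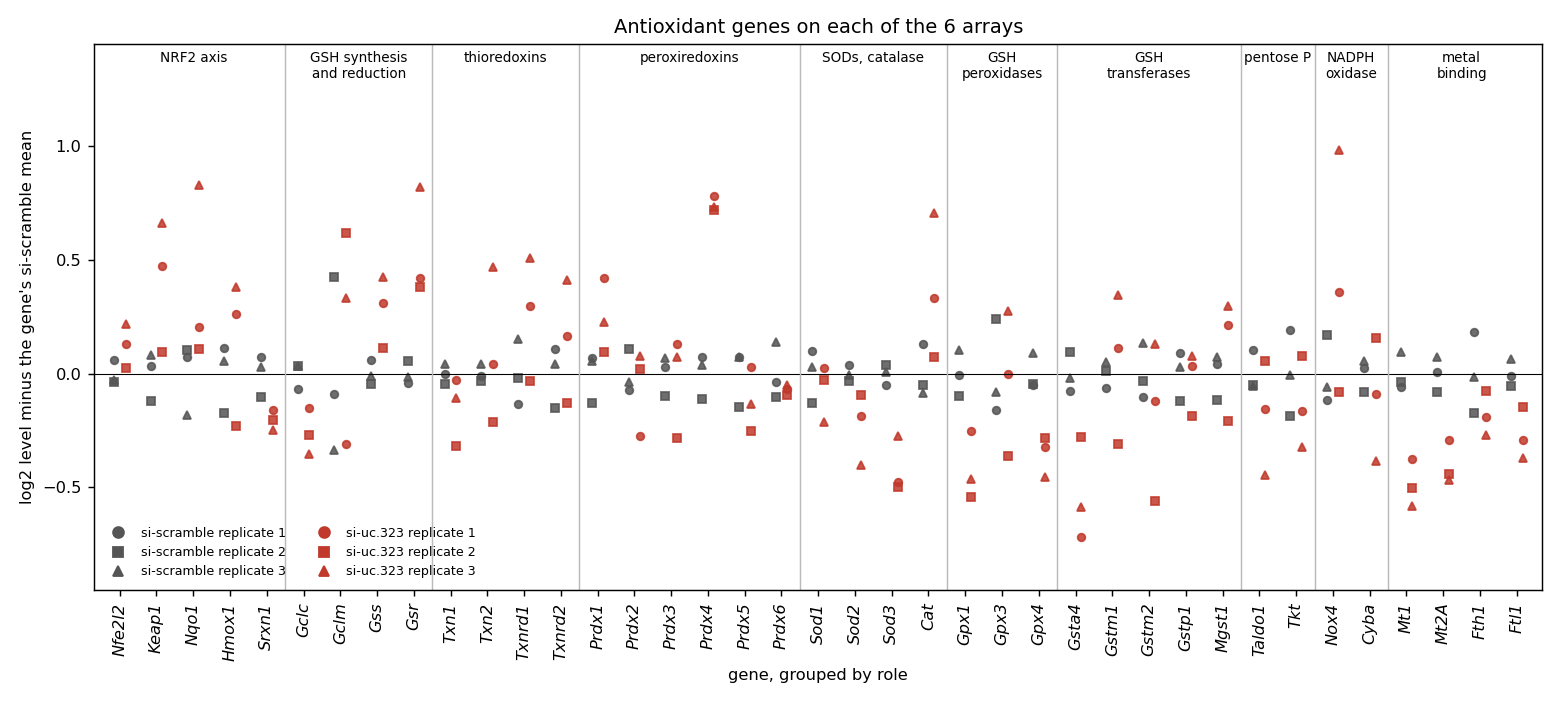
Log2 level of 39 antioxidant genes on each of the 6 arrays, minus the gene's si-scramble mean (vertical axis), with genes grouped by role along the horizontal axis. Grey marks are si-scramble and red marks si-uc.323, and circles, squares and triangles are replicates 1, 2 and 3. The 3 red marks of Prdx4 sit together between 0.72 and 0.78, while those of Nox4 and Gclm spread over 1.07 and 0.93.

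**Figure D2:**
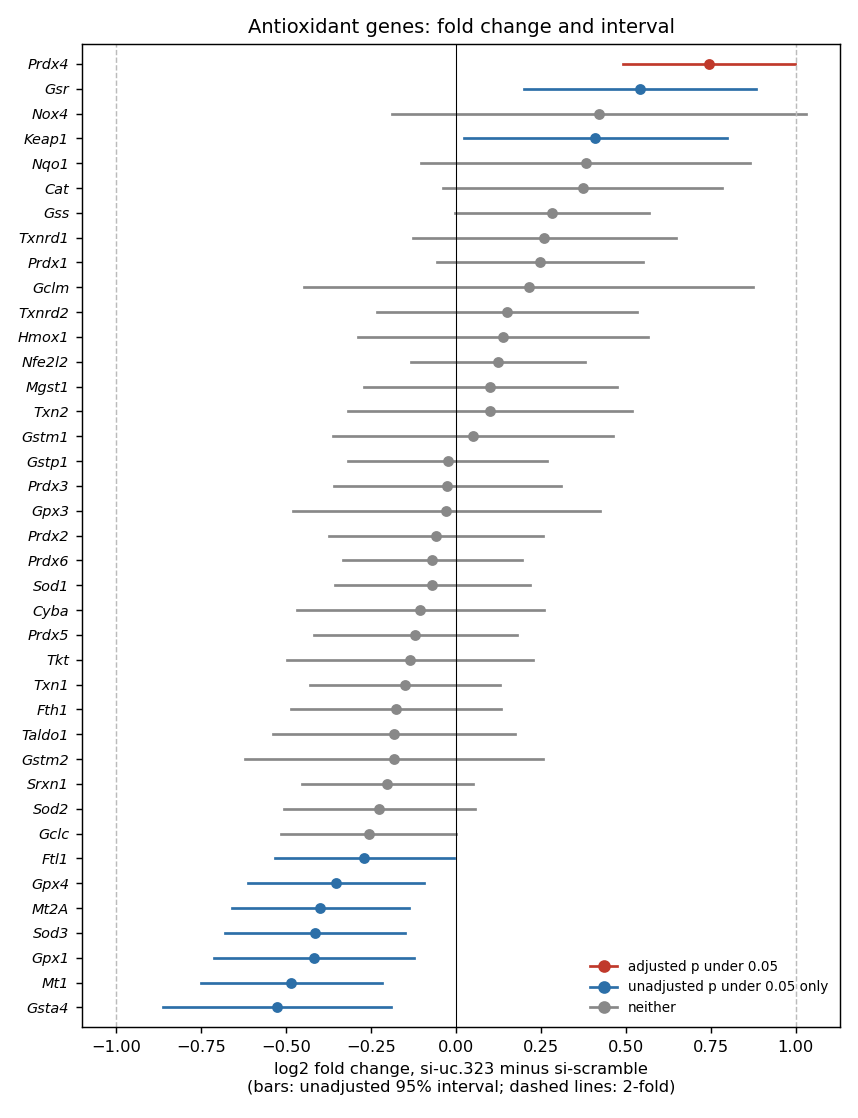
Log2 fold change (si-uc.323 minus si-scramble, horizontal axis) of each of 39 antioxidant genes with its unadjusted 95% interval from the limma fit, ordered by size. Prdx4 at 0.74 alone is red (adjusted p under 0.05), 9 further genes are blue (unadjusted p under 0.05 only), and dashed lines mark a 2-fold change.

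Peroxiredoxins are thiol peroxidases spread over the compartments of the cell. PRDX4 is the secretory pathway's member, which passes the oxidising power of peroxide on to protein folding. All levels in what follows are log2 processed intensities relative to the 75th percentile of the same array, so that 0 is that percentile. Prdx4 read 0.97, 0.78 and 0.93 on si-scramble replicates 1, 2 and 3 and 1.67, 1.61 and 1.63 on si-uc.323 replicates 1, 2 and 3. Every si-uc.323 array was above every si-scramble array, and the si-uc.323 arrays differed among themselves by only 0.06. The means were 0.89 ± 0.10 and 1.64 ± 0.03 (SD, n = 3 each), a log2 fold change of 0.74 ± 0.11 (SE, limma adjusted p = 0.0228). By p-value Prdx4 ranked 120 among 11580 named genes. The direction held under all 19 alternatives, with values from 0.64 to 0.81, and the gene passed in 13 of them. Without si-scramble replicates 1, 2 and 3 in turn, 0, 12 and 0 of all named genes passed. Leaving out si-scramble replicate 1 ended the call of Prdx4 (limma adjusted p = 0.107), as did leaving out replicate 2 (adjusted p = 0.0954) or replicate 3 (adjusted p = 0.129). It was also lost in the fit with the slide as a block (0.78, adjusted p = 0.156), on the first slide alone (adjusted p = 0.0669) and with dim probes kept in (adjusted p = 0.0904). On the first slide the difference thus rests on si-uc.323 replicate 1, which stood 0.78 above the si-scramble mean.

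None of the other 5 peroxiredoxins was called (against 6.14% of all named genes), and no difference from Prdx4 was tested. Prdx1, the abundant cytosolic enzyme, read 1.60 to 1.80 with si-scramble and 1.82 to 2.14 with si-uc.323, groups that did not overlap, for a log2 fold change of 0.25 (limma adjusted p = 0.256). It was above 0 under all 19 alternatives and passed with array weights (0.33, adjusted p = 0.0468). Prdx2, the cytosolic form that is rich in red cells, had a log2 fold change of -0.06, Prdx3 of the mitochondria -0.03, Prdx5 of mitochondria and peroxisomes -0.12, and Prdx6, which uses glutathione, -0.07. In each of these last 4 genes the groups overlapped. The sign of Prdx3 turned under 9 of 19 alternatives, quantile normalization (0.05) among them, so no direction can be read from it.

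The promoter of Prdx4 is shown because it is the called gene. It covers the 250 bases before the start of the gene in RefSeq's GRCr8 build (chrX:43878483-43878732, plus strand), and capitals mark a metal response element core, TGCACNC or TGCGCNC.
Prdx4: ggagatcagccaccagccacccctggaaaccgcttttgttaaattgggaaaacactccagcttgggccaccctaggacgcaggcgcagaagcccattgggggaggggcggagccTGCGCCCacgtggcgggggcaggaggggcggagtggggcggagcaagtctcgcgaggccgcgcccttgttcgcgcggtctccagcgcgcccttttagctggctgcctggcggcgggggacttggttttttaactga
The antioxidant response element core bound by NRF2 with small MAF proteins, TGACNNNGC, was searched on both strands from 250 bases before to 50 after the start. In Prdx4 it matched once, on the minus strand 20 bases after the start (GCTTGGTCA). Among the 34 genes of the group that had a promoter sequence, 10 held such a match (29.4%), against 12.1% of 33469 RefSeq promoters and 14.5% of 9923 promoters of tested genes. The 10 were Gclm, Gstp1, Mt1, Mt2A, Nfe2l2, Prdx1, Prdx4, Prdx5, Sod2 and Txnrd1. Their log2 fold changes ran from -0.48 to 0.74 with a median of 0.05, and 5 of 10 were above 0. Of 23 tested genes without a match, 9 were above 0 and the median was -0.06. Holding the motif in this window therefore went with no single direction. The endoplasmic reticulum stress element was found in 0 of the 34 windows, but only 0.0657% of all promoters and 0.161% of those of tested genes held it. At such rates 0 matches among 34 windows say nothing about the group. Fth1, Ftl1, Gsr, Hmox1, Prdx6 and Sod3 had no promoter sequence.

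NRF2 and its sensor came first among the regulators. Nfe2l2, which encodes NRF2, read 1.69, 1.59 and 1.60 with si-scramble and 1.76, 1.65 and 1.85 with si-uc.323. Its groups overlapped, and the log2 fold change was 0.12 ± 0.11 (SE, limma adjusted p = 0.492). Keap1, the adaptor that sends NRF2 to the proteasome, read -2.41, -2.57 and -2.36 with si-scramble and -1.98, -2.35 and -1.78 with si-uc.323. The si-uc.323 arrays were all higher, replicate 2 barely so, and the log2 fold change of 0.41 ± 0.16 did not pass (limma adjusted p = 0.159). Without si-uc.323 replicate 2 it was 0.57 and passed (adjusted p = 0.0406). NRF2 protein is set mainly by degradation, which arrays of RNA do not measure.

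The classical NRF2 targets gave values on both sides of 0, none of them called (against 6.14% of all named genes). Nqo1, a quinone reductase, read -1.62, -1.59 and -1.88 with si-scramble and -1.49, -1.59 and -0.86 with si-uc.323, and si-uc.323 replicate 3 alone stood clear of the others. Its log2 fold change of 0.38 ± 0.21 (limma adjusted p = 0.27) was 0.16 without si-uc.323 replicate 3. Hmox1, the inducible haem oxygenase, read -0.95, -1.24 and -1.01 with si-scramble and -0.80, -1.29 and -0.69 with si-uc.323, with replicate 2 the lowest of its group in both. The groups overlapped, at a log2 fold change of 0.14 ± 0.18. Srxn1, the sulfiredoxin that repairs over-oxidised peroxiredoxins, lay the other way. It read 1.40 to 1.58 with si-scramble and 1.26 to 1.34 with si-uc.323, for a log2 fold change of -0.20 (limma adjusted p = 0.261).

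Glutathione is built from glutamate, cysteine and glycine by the ligase of GCLC and GCLM and then by GSS, and its oxidised form is reduced again by GSR with NADPH. Gsr had the largest positive value of the group after Prdx4. It read -4.19, -4.10 and -4.17 with si-scramble and -3.73, -3.77 and -3.33 with si-uc.323. All si-uc.323 arrays were higher, replicate 3 by the most, yet the log2 fold change of 0.54 ± 0.14 did not pass (limma adjusted p = 0.07). It passed under 4 of 19 alternatives, among them quantile normalization (0.42, limma adjusted p = 0.0497). With normexp background correction, which started from median spot intensities and added an offset, the value of this dim probe was 0.22. The reason for that difference was not tested. Gss read -1.77, -1.87 and -1.84 with si-scramble and -1.51, -1.71 and -1.40 with si-uc.323, apart by a log2 fold change of 0.28 ± 0.12 (limma adjusted p = 0.181).

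Neither ligase subunit was called. Gclc, the catalytic subunit, read 1.08, 1.18 and 1.18 with si-scramble and 0.99, 0.87 and 0.79 with si-uc.323. Its groups did not overlap, and the log2 fold change was -0.26 ± 0.11 (limma adjusted p = 0.18). Gclm, the modifier subunit, read -2.56, -2.05 and -2.81 with si-scramble and -2.78, -1.85 and -2.13 with si-uc.323. It was the least reproducible of the 39 within si-scramble, with a range of 0.76 there, and its log2 fold change of 0.21 ± 0.28 turned to -0.31 on the first slide. No comparison between the subunits was tested.

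The thioredoxin pair and its reductases showed no called gene and no gene whose groups lay apart, against 6.14% and 39.1% of all named genes. With only 4 genes, such counts do not set them apart. Txn1, the cytosolic thioredoxin, had a log2 fold change of -0.15 and Txn2, the mitochondrial one, of 0.10, the latter turning to -0.0055 with a median shift of the arrays. Txnrd1, the cytosolic selenoenzyme that reduces thioredoxin, had 0.26 (its dimmer probe read 0.27) and Txnrd2 of mitochondria 0.15. In all 4 genes si-uc.323 replicate 2 was the lowest array of its group, and in all but Txn1 replicate 3 was the highest.

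None of the 4 superoxide dismutase and catalase genes or the 3 glutathione peroxidases was called, against 6.14% of all named genes. Sod3, the secreted dismutase bound to matrix, read 0.68, 0.76 and 0.73 with si-scramble and 0.25, 0.23 and 0.45 with si-uc.323. The groups were well apart, and the log2 fold change of -0.42 ± 0.11 did not pass (limma adjusted p = 0.0722). With arrays shifted to a common median, which lowers the median of all genes by 0.10, it was -0.52 and passed (adjusted p = 0.0354). Sod2 of mitochondria had a log2 fold change of -0.23 with groups apart (limma adjusted p = 0.263), and Sod1 of the cytosol -0.07 with groups overlapping and the opposite sign under 4 of 19 alternatives. Cat, the catalase of peroxisomes, read -2.04 to -1.83 with si-scramble and -1.89 to -1.25 with si-uc.323, a log2 fold change of 0.37 (limma adjusted p = 0.215).

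Gpx1, the main cytosolic glutathione peroxidase, read 2.57, 2.48 and 2.68 with si-scramble and 2.33, 2.04 and 2.11 with si-uc.323. Gpx4, which reduces lipid peroxides in membranes and so guards against ferroptosis, read 4.03, 4.03 and 4.17 with si-scramble and 3.75, 3.79 and 3.62 with si-uc.323. In both genes every si-uc.323 array was below every si-scramble array. The log2 fold changes were -0.42 ± 0.12 for Gpx1 (limma adjusted p = 0.0906) and -0.35 ± 0.11 for Gpx4 (adjusted p = 0.0971), and the dimmer probe of Gpx4 read -0.12. Gpx1 had -0.25 on si-uc.323 replicate 1, the array that shared its slide with the controls, and Gpx4 had -0.32. Gpx3, the secreted peroxidase, had a log2 fold change of -0.03, si-uc.323 arrays on both sides of the controls and the opposite sign under 5 of 19 alternatives.

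Glutathione transferases attach glutathione to reactive molecules. Gsta4, which clears the lipid aldehyde hydroxynonenal, had the lowest value of the 39. It read 2.80, 2.97 and 2.86 with si-scramble and 2.16, 2.60 and 2.29 with si-uc.323. Replicate 2 came nearest to the controls without reaching them, and the log2 fold change was -0.53 ± 0.14 (limma adjusted p = 0.0716). Without si-uc.323 replicate 2 it was -0.65 and passed (adjusted p = 0.03). Gstm1 (0.05), Gstm2 (-0.18), Gstp1 (-0.03) and Mgst1, a transferase of membranes (0.10), had log2 fold changes near 0 with overlapping groups. Gstm1 and Gstm2 are close relatives, and binding of both RNAs by either probe was not tested, since probe sequences were not used here.

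Metallothioneins bind zinc and copper through their cysteines and scavenge oxidants, and ferritins store iron away from peroxide. All 4 genes of this kind had values below 0, without a call (against 6.14% of all named genes called). All 4 are also bright, with mean levels from 2.96 (Mt1) to 6.16 (Fth1). Of genes at or above the 75th percentile, 65.1% of all named genes and 87% of this group had values below 0. The shared direction therefore does not set these 4 apart. Mt1 read 3.14, 3.16 and 3.30 with si-scramble and 2.83, 2.70 and 2.62 with si-uc.323. Its groups lay apart, and the log2 fold change of -0.48 ± 0.11 came close to the threshold (limma adjusted p = 0.0537). It passed under 4 of 19 alternatives, including normexp (-0.54, adjusted p = 0.029) and a filter over all 6 arrays (adjusted p = 0.0484). Mt2A read 3.85, 3.77 and 3.92 with si-scramble and 3.56, 3.41 and 3.38 with si-uc.323. The log2 fold change was -0.40 ± 0.11 (limma adjusted p = 0.0764), and the dimmer of its probes read -0.15. Ftl1, the ferritin light chain, read 5.92, 5.88 and 5.99 with si-scramble and 5.64, 5.78 and 5.56 with si-uc.323, at a log2 fold change of -0.27 ± 0.11 (limma adjusted p = 0.171). For Fth1, the heavy chain, the groups overlapped (-0.18, limma adjusted p = 0.416), and its other probe read -0.30. Each of the 4 genes kept its sign under all 19 alternatives, which reuse the same arrays. The metallothioneins are also near-identical relatives, so their probes may not be independent.

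The metallothionein promoters are shown because both genes hold the antioxidant and the metal response element cores, and they were chosen after their values were seen. Gclm, Gstp1 and Prdx4 hold both cores too, so this does not set the metallothioneins apart. Each stretch is the 250 bases before the start on the minus strand of GRCr8, chr19:10832976-10833225 for Mt1 and chr19:10838709-10838958 for Mt2A. Capitals mark TGACNNNGC, TGCACNC and TGCGCNC on either strand.
Mt1: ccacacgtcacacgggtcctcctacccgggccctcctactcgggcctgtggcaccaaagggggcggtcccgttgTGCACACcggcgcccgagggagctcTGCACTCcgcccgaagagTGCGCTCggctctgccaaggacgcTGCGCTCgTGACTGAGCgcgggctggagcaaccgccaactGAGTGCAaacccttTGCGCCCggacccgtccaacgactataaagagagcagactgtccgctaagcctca
Mt2A: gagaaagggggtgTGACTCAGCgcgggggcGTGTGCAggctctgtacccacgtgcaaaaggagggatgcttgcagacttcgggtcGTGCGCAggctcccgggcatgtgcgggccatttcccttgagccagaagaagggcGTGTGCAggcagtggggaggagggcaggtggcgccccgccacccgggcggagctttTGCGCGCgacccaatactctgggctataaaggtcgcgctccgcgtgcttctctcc
The antioxidant core stood 101 bases before the start in Mt1 (TGACTGAGC) and 237 bases before it in Mt2A (TGACTCAGC). The metal core was matched 6 times in Mt1 and 4 times in Mt2A. Across the group 9 of 34 promoters held the metal core (26.5%), against 24.2% of all promoters and 34.8% of those of tested genes, so that its presence is common. A match describes letters and not a bound site.

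NADPH comes from the pentose phosphate pathway among other sources and is spent by NADPH oxidases as well as by the reductases above. Taldo1, transaldolase, had a log2 fold change of -0.18 and Tkt, transketolase, of -0.14. In both, si-uc.323 replicate 2 lay above the si-scramble mean and replicate 3 below it. Nox4, an oxidase that releases hydrogen peroxide, read -4.93, -4.65 and -4.88 with si-scramble and -4.46, -4.90 and -3.83 with si-uc.323. Its value rested on si-uc.323 replicate 3: the log2 fold change was 0.42 ± 0.26 (limma adjusted p = 0.329), 0.14 without that array and 0.01 with normexp. Cyba, the p22phox subunit that stabilises NADPH oxidases, had a log2 fold change of -0.11 with overlapping groups.

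Values of the group went with level. Of 23 genes at or above the array's 75th percentile, 20 had a log2 fold change below 0 (87%), with a median of -0.15. Among the 16 dimmer genes, 13 had one above 0 (81.2%), with a median of 0.18. All named genes tilted the same way, at 65.1% below 0 in the bright part (median -0.09) and 60.5% above 0 in the dim part (median 0.10). Prdx4, Nfe2l2 and Prdx1 were the bright genes with values above 0. The brighter slide held si-uc.323 arrays alone, and its part in this tilt was not tested. With cyclic loess normalization, an alternative chosen after seeing the data that evens out such a tilt, 2 genes were called, Prdx4 (0.79) and Gsr (0.42, adjusted p = 0.0407).

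**Figure D3:**
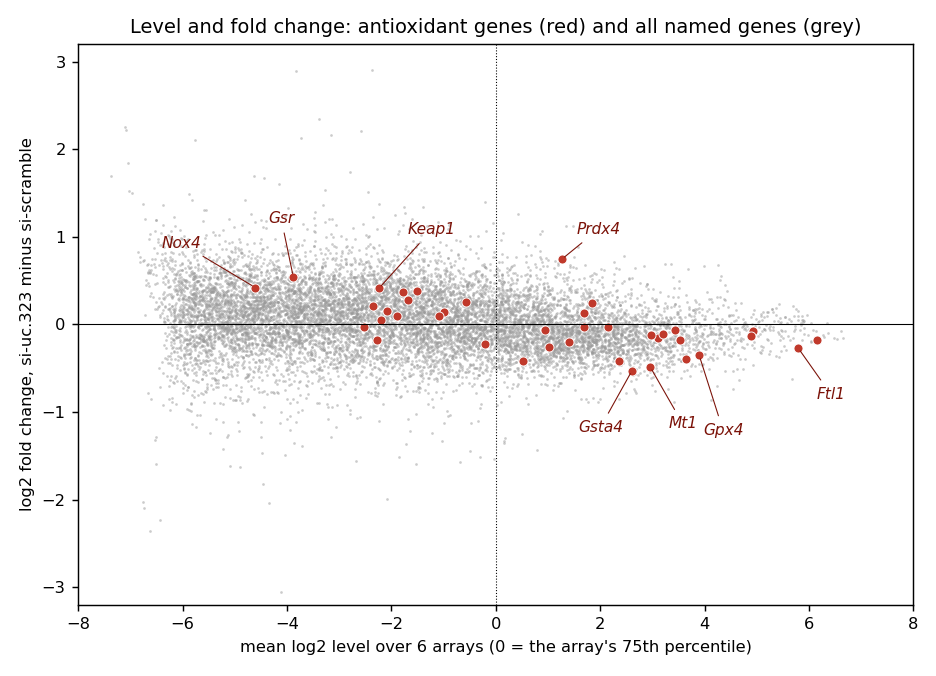
Mean log2 level over the 6 arrays (horizontal axis, 0 being the array's 75th percentile) against log2 fold change (vertical axis) for 39 antioxidant genes in red and 11580 named genes in grey. The red points lie mostly above 0 on the dim side (13 of 16) and below 0 on the bright side (20 of 23), with Prdx4 standing above the others on the bright side.

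The si-uc.323 arrays, which lay on 2 slides, ranged more widely than the si-scramble arrays on 1 slide, so the range holds slide differences as well as those between cultures. The range over its 3 arrays exceeded that over the si-scramble arrays in 35 of 39 genes (89.7%, against 81.9% of all named genes), with median ranges of 0.35 and 0.19. Replicate 3 was the highest si-uc.323 array in 19 genes and the lowest in 12, together 79.5% against 78.3% of all named genes, and replicate 2 was the lowest in 24 (61.5%, against 42.7% of all named genes). The median difference of the 39 genes from the si-scramble mean was 0.00033, -0.13 and 0.08 on si-uc.323 replicates 1, 2 and 3, against -0.0018, -0.0011 and 0.10 for all named genes. Prdx4, with a range of 0.06, and Prdx6, with 0.04, were the most even across the si-uc.323 arrays.

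**Figure D4:**
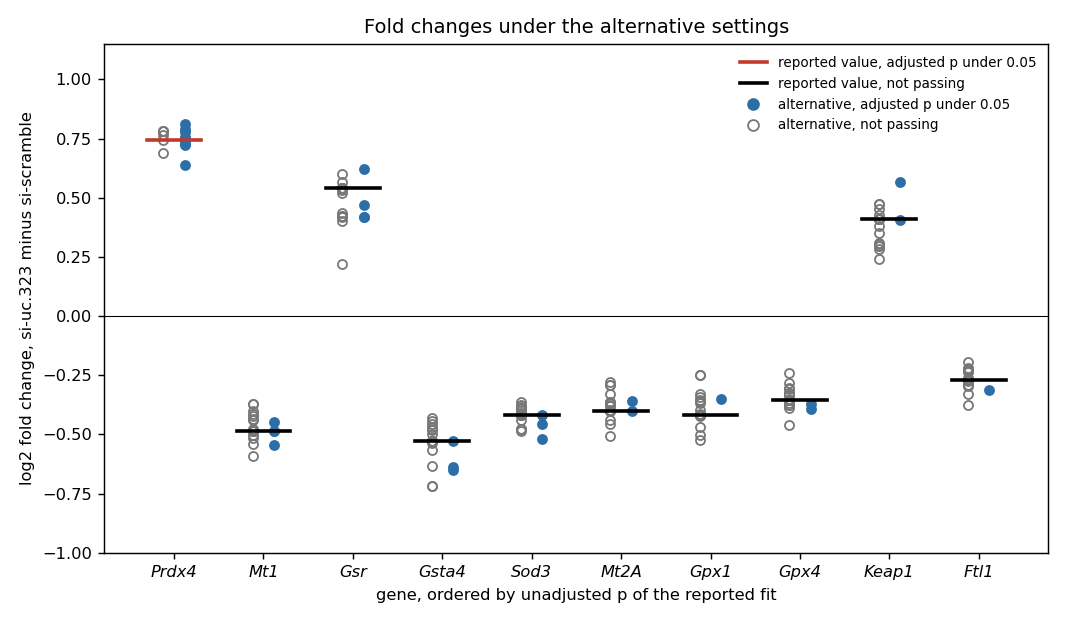
Log2 fold changes (vertical axis) of the 10 antioxidant genes with the lowest unadjusted p, as reported (bars) and under 19 alternative settings (circles, filled where the adjusted p is under 0.05). Prdx4 passed in 13 alternatives, Mt1 and Gsr in 4 each, and no gene shown crossed 0.

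Genes of the same pathways outside the 40 gave 15 calls. Of 149 further redox genes listed by function, 131 were tested, with a median log2 fold change of -0.05. Of these, 4 passed the test as higher and 11 as lower (11.5%, against 6.14% of all named genes, 3.26% higher and 2.88% lower). The lists were drawn up with earlier results of these data known, so their shares are descriptions only. Leaving out any single control array removed all 15 calls in limma (0 of 131 each time). Of all named genes, 0, 12 and 0 were then called without si-scramble replicates 1, 2 and 3. The redox calls numbered 7, 35 and 3 without si-uc.323 replicates 1, 2 and 3, against 451, 1859 and 292 of all named genes. With normexp, 8 of the 15 passed and 7 did not. The glutathione enzymes outside the 40 held 5 of the decreases among 23 tested genes. Mgst3, a membrane transferase and peroxidase, fell by 0.79 on the log2 scale (2.90, 2.87 and 2.90 with si-scramble and 2.16, 2.12 and 2.03 with si-uc.323; limma adjusted p = 0.0202). Gsta2 (-0.90), Gstk1 of mitochondria and peroxisomes (-0.61), Gsta6 (-0.54; -0.46 with normexp, adjusted p = 0.0532) and Gstz1, which also acts in tyrosine breakdown (-0.49), fell as well. None rose. Alpha-class transferases such as Gsta2 and Gsta6 are closely related, so their probes may share targets.

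Cysteine supply held calls in opposite directions. Cth, which makes cysteine from cystathionine, rose by a log2 fold change of 1.105 ± 0.15 (limma adjusted p = 0.021), from -4.34, -4.57 and -4.50 with si-scramble to -3.19, -3.66 and -3.26 with si-uc.323. With normexp it was 0.46 and did not pass (adjusted p = 0.083). Cbs, which makes cystathionine, fell by 0.65 (limma adjusted p = 0.0304), but with normexp the value was -0.39 (adjusted p = 0.125). The probe of Cbs was dim, with mean levels of -5.38 with si-scramble and -6.04 with si-uc.323. Ggt1, which cleaves extracellular glutathione, fell by 0.59 (adjusted p = 0.0388), and with normexp the value was -0.40 (adjusted p = 0.124). Among NADPH sources, Nnt, the proton-driven transhydrogenase that supplies mitochondrial NADPH, fell by 0.71 (4.51, 4.56 and 4.71 with si-scramble and 3.93, 3.86 and 3.87 with si-uc.323; limma adjusted p = 0.0259). Mthfd2l, a mitochondrial folate enzyme, rose by 0.75 (limma adjusted p = 0.0333), and with normexp the value was 0.47 (adjusted p = 0.0684). In all of these the si-uc.323 and si-scramble arrays lay apart, as they did for 39.1% of all named genes. These genes were picked for passing the test on the same arrays, so this adds no support.

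Iron and metal handling showed 1 increase and 2 decreases among 17 tested genes (17.6% called, against 6.14% of all named genes). Slc40a1, the iron exporter ferroportin, fell by 0.68 (limma adjusted p = 0.0376) and Mt3, a further metallothionein, by 0.71 (adjusted p = 0.0365; -0.44 with normexp, adjusted p = 0.0858). Hfe, a regulator of iron sensing, rose by 0.62 (adjusted p = 0.0476), but read 0.024 with normexp (adjusted p = 0.911). The probes of Mt3 (mean levels -4.98 with si-scramble and -5.69 with si-uc.323) and Hfe (-5.86 and -5.25) were dim. Mafk, a small MAF partner of NRF2, rose by 0.78 (adjusted p = 0.0286), and Glrx, a glutaredoxin that frees proteins of glutathione, fell by 0.58 (adjusted p = 0.0444). Of 14 other oxidant sources none was called in the limma fit (against 6.14% of all named genes), and 5 had an unadjusted p under 0.05 (35.7%, against 30.1%). The uncalled genes with the lowest p were Ugdh (log2 fold change 0.56, adjusted p = 0.0573), Duoxa1 (0.72, adjusted p = 0.0589), Gsto2 (-0.61, adjusted p = 0.0618) and Hmox2, the constitutive haem oxygenase (-0.44, adjusted p = 0.0645). In Duoxa1 only 1 of 3 control arrays exceeded background clearly, and the value turned to -0.043 with normexp.

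**Figure D5:**
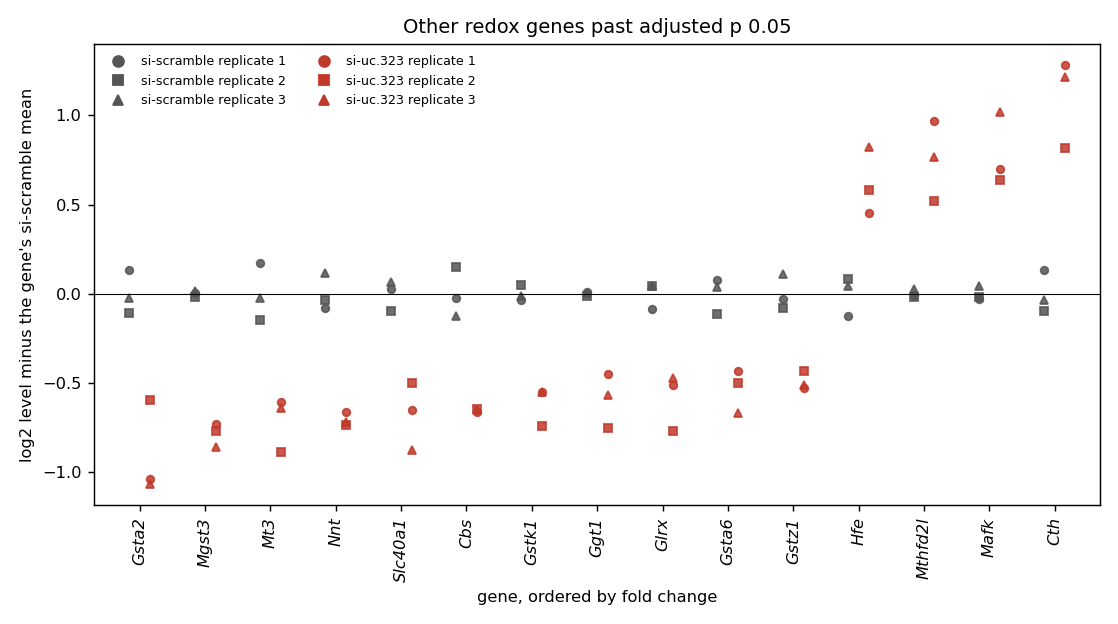
Log2 level of the 15 called redox genes outside the 40, minus the gene's si-scramble mean, on each of the 6 arrays (vertical axis), ordered by fold change. Grey is si-scramble and red si-uc.323, with circles, squares and triangles for replicates 1, 2 and 3. The 11 decreases lie left and the 4 increases right, with Cth highest at 1.105 on average.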

How the data were processed

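Cy3-labelled RNA from 6 cultures was measured on 1-colour Agilent arrays, 1 each. The authors ran Feature Extraction 11.0.1.1 on the scans, as the submitters' processing notes say. Each deposited scanner file holds linear spot intensity with background removed and a spatial trend taken out, and arrays had not been scaled to each other, per the file headers. The deposited series values are log2, of unstated scale and centring. Every column has a median of 6.52 and correlates at 0.9954 to 0.9995 with that array's scanner values, and these values entered only as an alternative.

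Titles gave the groups and replicate numbers, and scan identifiers in the file headers gave the slides, by inference. Left out were control spots and, per array, 322 to 594 outlier spots of 42877. No spot was saturated. From each log2 processed intensity the array's 75th percentile was subtracted (1182 to 1381 units on slide 1, 1718 and 1775 on slide 2), and replicate spots were averaged by probe. A probe had to be well above background on all 3 arrays of a group. Of 30367 probes, 18005 could be named through accessions of RefSeq's GRCr8 annotation, while 12362 stayed unnamed. The headers place the probes on rn4, so no gene coordinates were joined. The brightest probe by mean over the 6 arrays stood for a gene.

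All 19920 features were fitted with limma 3.58.1 in R 4.3.3, 2-sided and without covariates, with Benjamini-Hochberg adjustment over all of them and a threshold of 0.05. The fit was tested on simulated data with independent noise and no slide effect, so that check does not bear on the slides. A positive fold change means a higher level with si-uc.323. The genes, lists and tests were chosen with earlier results of these data known. Values on every array are given for called genes, the 12 lowest unadjusted p and 6 NRF2 pathway genes, and outside the 40 the called redox genes and 4 uncalled ones with the lowest p are named. Values on every array are in the text for 3 of these and in a plot for all 15 called. Same-numbered samples deviated together at 0.205, 0.39 and -0.116, so replicate numbers were not taken as pairs. Precision is limited by the number of arrays. The alternatives were normexp background correction (offset 50, on median spot intensity), quantile, median and cyclic loess normalization, the series values, other filters on dim probes, the mean over probes, other variance settings, replicate and slide blocks, slide 1 alone and leaving out each array. Plots used matplotlib 3.10.9 (Python 3.11.15).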

Additional observations from a re-analysis of the deposited data

How the results depend on the processing

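The count of 1 higher and 0 lower among the 39 antioxidant genes became 1 and 2 with normexp, 2 and 0 with quantile normalization and 2 and 0 with cyclic loess (chosen after seeing the data). It became 1 and 1 with a median shift, 1 and 1 with a filter over all 6 arrays, 1 and 4 with a trended and robust prior and 5 and 7 with array weights. It was 0 and 0 without a background filter, with the slide as a block and on slide 1 alone. Leaving out single arrays gave 0 to 3 higher (0 without any one si-scramble array, 3 without si-uc.323 replicate 2) and 0 to 1 lower. The median log2 fold change of the 39 was -0.16 with a median shift, which moved the median of all genes by -0.1048, and otherwise stayed within the spread of replicates. Called named genes, 711 as reported (53% of them higher), numbered 1088 with quantile normalization, 1172 with the trended prior, 3399 with array weights, 1218 with cyclic loess, 404 with the replicate block, 3 with the slide block, 0 on slide 1 alone, 0 without a filter (limma, 3110 at an unadjusted p under 0.05) and 0 to 1859 without single arrays. Of the called genes 35.6% were higher with the median shift, 42.6% with normexp, 41.8% with quantile normalization and 41.4% with the series values. The other redox genes called, 15 as reported, numbered 23, 57, 24 and 7 with quantile normalization, array weights, cyclic loess and the replicate block, 0 without a filter, with the slide block and on slide 1 alone, and 0 to 35 without single arrays. With the replicate block the count of antioxidant genes was still 1 higher and 0 lower. Of 741 values of the 39 genes under the alternatives, 43 in 12 genes had the opposite sign, none of them called. Prdx3 read 0.025 with normexp, 0.053 with quantile normalization, 0.026 with the series values, 0.044 with array weights, 0.13 on slide 1 (as a block or alone) and 0.026 with cyclic loess. Gstp1 read 0.018, 0.054, 0.042, 0.034 and 0.030 with normexp, quantile normalization, series values, slide 1 and cyclic loess. Gstm1 read -0.063, -0.055, -0.058 and -0.048 with quantile normalization, the median shift, series values and cyclic loess. Txn2 read -0.0055 and Mgst1 -0.0040 with the median shift, and Mgst1 -0.0064 with the series values. Gpx3 read 0.044 with array weights and 0.00033 on slide 1, where Gclm read -0.31, Prdx5 0.030 and Sod1 0.027. Cyclic loess gave 0.0090 for Prdx2 and 0.0064 for Sod1, and normexp -0.043 for Duoxa1. Without single arrays the values ran from -0.086 to 0.056 for Gstp1, -0.18 to 0.14 for Gpx3, -0.10 to 0.10 for Prdx3, -0.13 to 0.050 for Prdx2, -0.34 to 0.0061 for Gstm2, -0.085 to 0.25 for Txn2, -0.13 to 0.00079 for Sod1, -0.099 to 0.23 for Gstm1 and -0.24 to 0.034 for Cyba. The causes of these changes in counts and values were not tested. The dim probe of Nox4 read 0.011 with normexp against 0.42 as reported.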
